A study of Mus musculus with 9 samples.

Results

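The genes described here are 10 genes of the B-lymphocyte lineage out of the 27179 genes in the count table. They were taken by symbol and fall into 2 groups of 5. *Rag1*, *Rag2*, *Dntt*, *Vpreb1* and *Igll1* belong to the precursor stages and are called precursor genes below, and *Cd79a*, *Cd79b*, *Pax5*, *Ebf1* and *Vpreb3* are used by B-lineage cells more broadly and are called pan-B genes. RNA was measured in whole mandibles, teeth included, which hold bone, marrow and dental tissue. The study asked how gene expression in the jaw differs in a mouse model of lupus that lacks the inhibitory IgG receptor FcγRIIB. It used 5 wild-type (WT) C57BL/6 males and 4 males labelled *FcγRIIB*-/- on the C57BL/6 background, all 6 months old and with no treatment named, and each library came from 1 mouse. No cell type restriction of the knockout is named, and RNA from whole tissue does not show which cells a transcript came from. Totals lay between 24158960 and 26787359 counts per mouse in WT and from 21453880 to 28991631 in those of the other group.

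B cells arise in the bone marrow. Early precursors cut and rejoin the immunoglobulin genes with the RAG1 and RAG2 recombinase, and terminal deoxynucleotidyl transferase adds bases at the joints. A rearranged heavy chain is first tested at the surface together with a surrogate light chain made of VpreB and λ5, and later with a true light chain as the B-cell receptor, which signals through CD79A and CD79B. The transcription factors EBF1 and PAX5 set and hold B-cell identity.

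The labels were checked first on *Fcgr2b*, the targeted gene. Its counts were 577, 954, 442, 630 and 529 in the WT mice, taken here and below in the order of replicates 1 to 5, against 757, 562, 628 and 634 in replicates 1 to 4 labelled *FcγRIIB*-/-. The knockout-labelled values lay inside the WT range, so the targeted gene was not lower in them. The level was 24.0 ± 8.28 CPM (SD, n = 5; reads per gene scaled to a common library size) in WT and 27.8 ± 2.90 CPM (SD, n = 4) in the other group, with log2 fold change 0.21 ± 0.20 (SE; edgeR adjusted p = 0.442; two-sided exact permutation test on CPM, p = 0.444). Without WT replicate 2, its highest WT mouse, the log2 fold change was 0.46 and passed as higher (adjusted p = 0.0131). Of the related receptor genes beside it, *Fcgr3* was lower, with log2 fold change -0.73, and *Fcgr4* had 0.14 (adjusted p = 0.835). *Fcgr4* had 0.29 (adjusted p = 0.677) without WT replicate 2. Counts per gene do not show whether the reads came from the deleted exons. For this reason the second group is called knockout-labelled, and not knockout, throughout, and all directions below are between libraries by their labels.

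WT replicate 2 stood apart from the other WT mice. The summed level of 11 immunoglobulin constant-region genes was 391, 9527.4, 393, 374 and 811 CPM in WT replicates 1 to 5, and that of 17 T cell genes was 31.7, 102, 23.8, 27.9 and 36.0 CPM. Many of the values that moved by over 1.5 times, or calls that changed, when this mouse was left out are given without it beside the result. This choice was made after seeing the data, and a result without such a value may also have moved.

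In the knockout-labelled libraries 9 of the 10 genes were lower (adjusted p under 0.05) and 0 were higher. The exception was *Pax5*. All 10 passed the filter on low counts and were among the 16329 genes tested, where 19.3% of genes were called lower and 14% higher. The 5 precursor genes and *Vpreb3* had fewer than 10 counts in at least 1 knockout-labelled library and reached the filter through WT, the group in which they were high, so the counts and medians over the 10 genes are a description and not support. The other 4 genes reached 10 counts or more in all 9 libraries, and of these *Cd79a*, *Cd79b* and *Ebf1* were lower and *Pax5* did not pass. Over all 10 genes the median log2 fold change was -2.45, against 0.01 over all tested genes. For the 9 genes called lower every mouse labelled *FcγRIIB*-/- lay below every WT mouse, which held for 17.5% of all tested genes. The median was -2.70 over the 5 precursor genes and -1.96 over the 5 pan-B genes. In a bulk tissue, fewer cells of a type and less RNA per cell cannot be told apart. The plot of the 10 genes by mouse shows the separation and its exception.

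**Figure D1:**
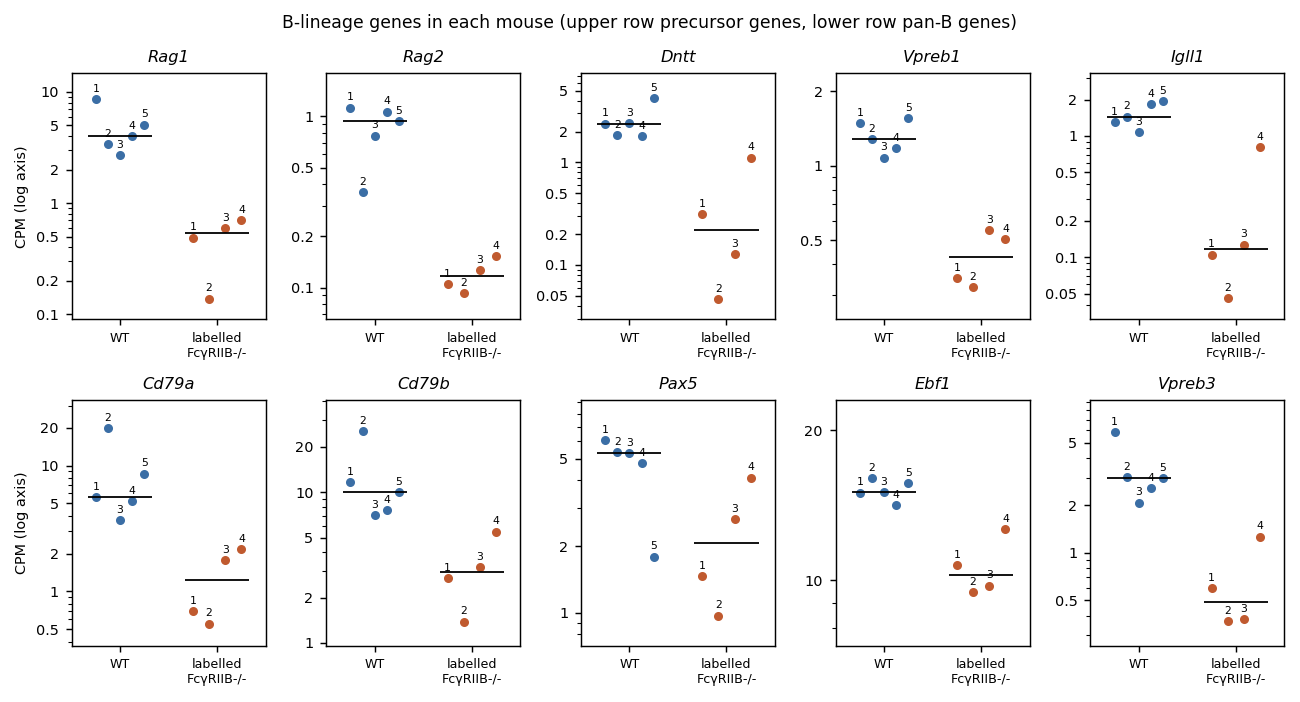
Level of each of the 10 B-lineage genes in CPM on log axes with their own range per panel, with 1 point per mouse (number: replicate) and a line at the group median, for 5 WT mice and 4 mice labelled *FcγRIIB*-/-. The groups overlap for *Pax5* alone, where WT replicate 5 lies at 1.80 CPM and knockout-labelled replicate 4 at 4.10 CPM, and *Ebf1* spans a far narrower range than the other genes.

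Since 9 of the 10 genes were lower in the same libraries, the stretch before their start was searched. RefSeq promoters of GRCm38 (250 bases before to 50 after the start) were available for 9 of the 10 genes. *Cd79b* had no entry. The E-box-type motif CAGNTG, the kind bound by basic helix-loop-helix factors such as those that act early in B-cell development, was found on either strand in 6 of the 10 promoters listed for these 9 genes, each in a different gene, against 51.4% of 32851 promoters in all, a share near that of the 10. The motif CCCNNGGG was found in 1, *Igll1*, against 13.7% of promoters. A match is a description of letters and not a site. Stretches of 60 bases with a match are shown for 4 of the genes, with the motif in capitals, 5′ to 3′ on the gene's strand.
Rag1, chr2:101649585-101649644, minus strand: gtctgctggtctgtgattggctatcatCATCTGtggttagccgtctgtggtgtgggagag
Igll1, chr16:16863986-16864045, minus strand: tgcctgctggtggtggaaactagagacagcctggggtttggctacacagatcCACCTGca
Cd79a, chr7:24897316-24897375, plus strand: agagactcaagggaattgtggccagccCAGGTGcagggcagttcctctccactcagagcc
Vpreb3, chr10:75948050-75948109, plus strand: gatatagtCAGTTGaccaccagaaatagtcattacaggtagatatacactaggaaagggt
The first base of the motif lies 85 bases before the start in *Rag1*, 8 in *Igll1*, 154 in *Cd79a* and 242 in *Vpreb3*. For *Vpreb3* this start is base 75948300 of chromosome 10, the start used in the promoter table, which lies inside the annotated gene span given below, since that span begins further upstream. The genes shown span log2 fold changes from -3.29 for *Rag1* to -2.35 for *Vpreb3*.

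The recombinase genes were the first of the precursor group. *Rag1* (gene identifier 19373, chromosome 2, 101638252 to 101649532, minus strand, mm10) encodes the DNA-cutting subunit of the recombinase. It was at 8.55, 3.41, 2.70, 4.0 and 5.08 CPM in WT replicates 1 to 5 and at 0.491, 0.139, 0.593 and 0.709 CPM in replicates 1 to 4 labelled *FcγRIIB*-/-. The highest knockout-labelled mouse was well under the lowest WT mouse. The mean fell from 4.75 ± 2.30 (SD, n = 5) to 0.483 ± 0.246 CPM (SD, n = 4), which is 10.2% of WT, and the log2 fold change of -3.29 ± 0.45 (SE; edgeR adjusted p = 0.00082) was the lowest of the 10.

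*Rag2* (19374, chromosome 2, 101624712 to 101632528, plus strand) encodes the partner subunit and is the neighbour of *Rag1*. It was at 1.12, 0.361, 0.771, 1.06 and 0.937 CPM in WT and at 0.105, 0.0924, 0.127 and 0.152 CPM in the knockout-labelled libraries. The WT values varied most through replicate 2, the lowest of them, and the groups did not overlap. These values rest on few reads, with 31, 9, 20, 29 and 24 counts against 3, 2, 3 and 3 counts. The log2 fold change was -2.80 ± 0.41 (SE; adjusted p = 0.00115), and the ratio of summed counts per total was 0.137 (95% exact interval 0.0664 to 0.254, counting error only).

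*Dntt* (21673, chromosome 19, 41029275 to 41059525, plus strand) encodes terminal deoxynucleotidyl transferase. WT mice had 2.39, 1.85, 2.43, 1.80 and 4.22 CPM, and mice labelled *FcγRIIB*-/- had 0.315, 0.0462, 0.127 and 1.11 CPM. Replicate 4 of the second group was far above its companions and still below all WT mice. The 4 knockout-labelled libraries held 9, 1, 3 and 22 counts. The log2 fold change of *Dntt* was -2.70 ± 0.61 (SE; adjusted p = 0.00761), and without replicate 4 of that group it was -3.84 (adjusted p = 0.00178).

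The surrogate light chain genes followed the same order of groups. *Vpreb1* (22362, chromosome 16, 16868401 to 16869255, minus strand) encodes its variable-like part, and *Igll1* (16136, chromosome 16, 16860671 to 16863985, minus strand) encodes λ5, its constant-like part. *Vpreb1* was at 1.49, 1.28, 1.08, 1.17 and 1.56 CPM in WT and at 0.350, 0.323, 0.551 and 0.507 CPM in the knockout-labelled libraries, with log2 fold change -1.60 ± 0.25 (SE; adjusted p = 0.00139). Both groups were tight for this gene, and its fold change was the smallest among the precursor genes. *Igll1* was at 1.30, 1.44, 1.08, 1.84 and 1.95 CPM in WT and at 0.105, 0.0462, 0.127 and 0.811 CPM in the other group, with log2 fold change -2.55 ± 0.58 (SE; adjusted p = 0.00813). Replicate 4 again stood above the rest, with 16 of the 23 *Igll1* counts of its group, and without it the log2 fold change was -3.94 (adjusted p = 0.00044). The paralog *Vpreb2* (22363), which encodes a near-identical VpreB protein, was too low to be tested, with 15 counts summed over WT and 0 over the knockout-labelled libraries. With the second group set at a floor of 3 counts summed over the group, it was 3.56-fold lower. That figure takes the WT reads as exact and is not a lower bound. The 95% exact interval of the ratio, which also takes in the counting error of the WT reads, ran from 0 to 0.392. Of the 75-base windows of the *Vpreb1* transcripts, 12.9% occur in another gene as well, so its count is uncertain by that share, and 136 of these 161 windows are shared with *Vpreb2*. The share was 6.31% for *Pax5*, 4.48% for *Cd79a*, 3.97% for *Rag2*, 0.122% for *Rag1* and 0 for the other 5 genes, and *Rag2*, *Vpreb1* and *Pax5* overlap a gene on the opposite strand, which cannot be told apart if the counting ignored strand. *Rag1* overlaps a gene on its own strand by 80 bases, which strand does not resolve.

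Among the pan-B genes, the signalling chains of the B-cell receptor were lower. *Cd79a* (12518, chromosome 7, 24897497 to 24901858, plus strand) was at 5.58, 20.0, 3.70, 5.25 and 8.63 CPM in WT and at 0.701, 0.555, 1.78 and 2.18 CPM in the knockout-labelled libraries. *Cd79b* (15985, chromosome 11, 106311341 to 106314562, minus strand) was at 11.7, 25.4, 7.02, 7.64 and 10.03 CPM and at 2.70, 1.39, 3.18 and 5.47 CPM. WT replicate 2 was the highest mouse for both genes, and neither overlapped between the groups. The log2 fold change was -2.74 for *Cd79a* (SE 0.58, adjusted p = 0.00567) and -1.96 for *Cd79b* (SE 0.46, adjusted p = 0.00877). Without WT replicate 2 these became -2.16 (adjusted p = 0.00499) and -1.51 (adjusted p = 0.00919), so both stayed lower. *Vpreb3* (22364, chromosome 10, 75943024 to 75949657, plus strand), related in sequence to the VpreB genes, was at 5.83, 3.01, 2.08, 2.57 and 2.97 CPM in WT and at 0.596, 0.370, 0.381 and 1.27 CPM in the knockout-labelled libraries, with log2 fold change -2.35 ± 0.43 (SE; adjusted p = 0.0029). Its lowest WT mouse lay above its highest knockout-labelled mouse.

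The transcription factor genes had the smallest fold changes of the 10. *Ebf1* (13591, chromosome 11, 44618100 to 45008096, plus strand) encodes a factor that starts the B-cell programme and is also expressed in stromal and fat-lineage cells. It was at 15.0, 16.1, 15.0, 14.1 and 15.7 CPM in WT and at 10.7, 9.47, 9.74 and 12.7 CPM in the knockout-labelled libraries. The groups did not overlap, but the difference was small, with 70.2% of the WT mean left and a log2 fold change of -0.51 ± 0.10 (SE; adjusted p = 0.00429). *Pax5* (18507, chromosome 4, 44524748 to 44710694, minus strand), which holds B cells in their lineage, was at 6.05, 5.34, 5.32, 4.77 and 1.80 CPM in WT and at 1.47, 0.970, 2.67 and 4.10 CPM in the other group. WT replicate 5 lay among the knockout-labelled mice, and the log2 fold change of -1.03 ± 0.43 (SE; adjusted p = 0.0888) did not pass. Without WT replicate 5 it was -1.21 (adjusted p = 0.0285), and without knockout-labelled replicate 4 it was -1.45 (adjusted p = 0.0343).

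**Figure D2:**
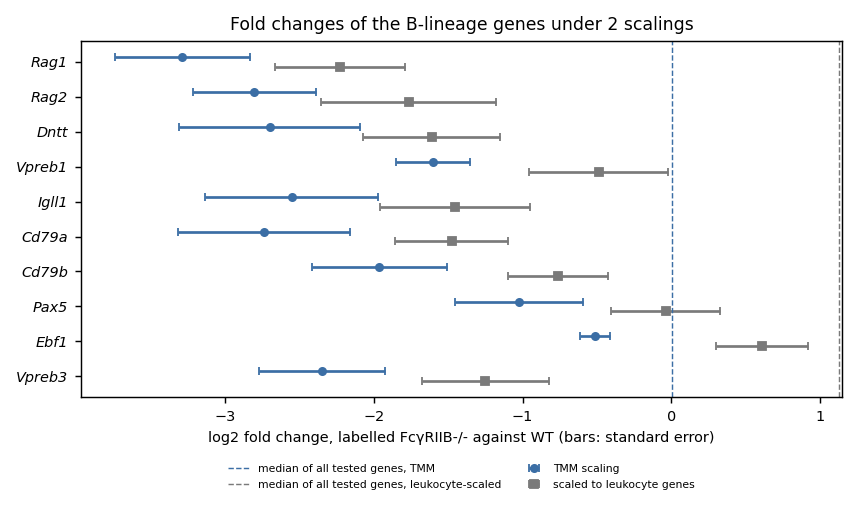
Log2 fold change of the 10 genes (knockout-labelled libraries against WT) with bars of 1 standard error, under the edgeR fit of CPM and under scaling to 10 leukocyte genes. Values run from -3.29 for *Rag1* to -0.51 for *Ebf1* in the first, and from -2.23 for *Rag1* to 0.61 for *Ebf1* in the second.

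Levels of different genes were compared as CPM per kilobase of exons. In WT, *Cd79b* was the most abundant at 8.64 ± 5.27 CPM per kilobase (SD, n = 5), followed by *Cd79a* at 5.92 ± 4.53 and *Vpreb3* at 3.83 ± 1.71. Among these 3, neighbours differed by less than the spread between mice. *Ebf1* came next at 1.56 ± 0.0748, then *Dntt* at 1.11 ± 0.429, *Vpreb1* at 1.10 ± 0.170, *Rag1* at 0.718 ± 0.348, *Igll1* at 0.704 ± 0.169, *Pax5* at 0.526 ± 0.188 and *Rag2* at 0.249 ± 0.0892. In that lower part *Dntt* and *Vpreb1*, *Rag1* and *Igll1*, and *Igll1* and *Pax5* differed by less than their spread. Every precursor gene was below *Cd79a*, *Cd79b*, *Vpreb3* and *Ebf1* on this scale. In the knockout-labelled libraries the order began with *Cd79b* at 2.22 ± 1.19, *Ebf1* at 1.09 ± 0.148 and *Cd79a* at 0.895 ± 0.549 CPM per kilobase (SD, n = 4) and ended with *Rag1* at 0.0731 ± 0.0373 and *Rag2* at 0.0348 ± 0.00765.

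The mice kept a common order across the genes of the second group. Knockout-labelled replicate 2 was the lowest of the 4 mice for 10 of the 10 genes, and replicate 4 was the highest for 9. Its sums of both gene groups were likewise the highest. No such order held in WT, where replicate 1 was highest for 4 genes, replicates 2 and 5 for 3 each, and replicate 3 lowest for 6. The low place of knockout-labelled replicate 2 was not particular to the 10 genes. It was also lowest of its group in summed CPM of the white blood cell (162), mature B-cell (95.9), T cell (18.9) and erythroid (306) lists described below. For neutrophil genes replicate 4 was lowest at 190 CPM, and for immunoglobulin genes replicate 2 was highest at 189 CPM.

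Precursor and pan-B genes were then compared within each mouse. The 5 precursor genes summed to 14.9, 8.35, 8.06, 9.88 and 13.7 CPM in WT and to 1.37, 0.647, 1.53 and 3.29 CPM in the knockout-labelled libraries, so that 15.6% of the WT mean was left. The 5 pan-B genes summed to 44.2, 69.8, 33.2, 34.4 and 39.1 CPM and to 16.2, 12.8, 17.8 and 25.7 CPM, with 41.0% left. Neither sum overlapped between the groups. The ratio of the precursor to the pan-B sum was 0.336, 0.120, 0.243, 0.287 and 0.352 in WT and 0.0844, 0.0507, 0.0859 and 0.128 in the knockout-labelled libraries. WT replicate 2, which had the highest *Cd79a* and *Cd79b*, was the only WT mouse within the range of the second group, and the mean log2 ratio differed by -1.60 from WT to that group. No p is given, because the ratio is a score over chosen genes.

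That difference depended on *Ebf1*, which makes up much of the pan-B sum and moved little. With *Ebf1* left out, a choice made after seeing the data, the ratio was 0.509, 0.155, 0.445, 0.488 and 0.587 in WT and 0.250, 0.197, 0.190 and 0.253 in the knockout-labelled libraries. WT replicate 2 then lay below all mice of the second group and the other WT mice above them, and the log2 difference was -0.85. When each gene counted equally, as the mean log2 CPM of the precursor genes minus that of the pan-B genes, it was -0.78, with values of -1.87, -2.89, -1.84, -1.70 and -1.34 in WT and -2.57, -2.82, -2.86 and -2.59 in the other group. On each of these measures 4 of the 5 WT mice lay above all knockout-labelled mice, and the size of the difference varied with the measure. The ratio of the single genes *Dntt* to *Cd79a* did not separate the groups. It ran from 0.0924 to 0.656 in WT and from 0.0714 to 0.512 in the knockout-labelled libraries.

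**Figure D3:**
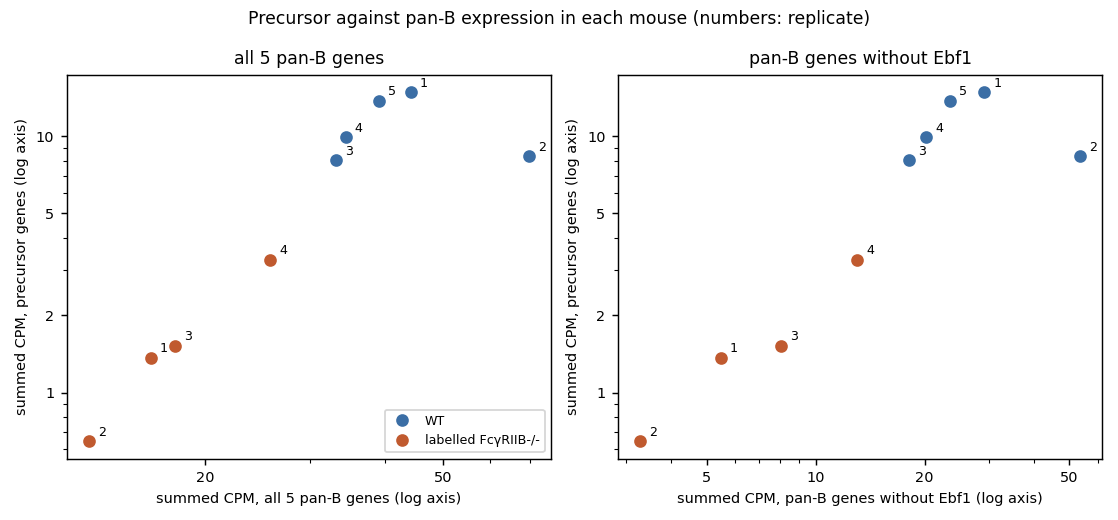
Summed CPM of the 5 precursor genes against that of the pan-B genes on log axes, with 1 point per mouse (number: replicate), using all 5 pan-B genes on the left and 4 without *Ebf1* on the right. WT replicate 2 lies far to the right of the other WT mice at a like precursor level, and all mice labelled *FcγRIIB*-/- lie below and to the left of the WT mice.

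Most genes in several lists of other blood cells were lower in the same libraries, and T cell genes, most of which did not pass, are given below. Of 10 genes that most white blood cells express, led in abundance by *Laptm5* and including *Ptprc*, the gene for CD45, 9 were lower (8 without WT replicate 2), with a median log2 fold change of -1.30. *Ptprc* itself had a log2 fold change of -1.16 (adjusted p = 0.011). All 15 neutrophil genes were lower, with a median of -3.13 and *Ngp* at -4.48, and 12 of 13 erythroid genes were lower, with a median of -3.65 and *Slc4a1* at -4.66. Of 12 monocyte and macrophage genes 10 were lower (9 without WT replicate 2), with a median of -0.86, and all 8 megakaryocyte genes were lower, with a median of -1.50. The B-lineage medians of -2.70 and -1.96 thus lay between those of the white blood cell list and the erythroid list.

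The fit was repeated with libraries scaled to the summed counts of the 10 white blood cell genes, a measure of B-lineage transcripts relative to leukocyte RNA. This scaling moved the median of all genes to 1.13, with 83.8% of tested genes called higher and 2.82% lower. Of the 10 B-lineage genes, 7 were called lower and 0 higher in this fit. The precursor genes and *Vpreb3* reached the filter through WT here too, so this count is a description and not support. With most genes called, the adjustment for multiple tests is mild, so adjusted p-values of this fit and the main fit are not comparable. *Rag1* had -2.23, *Rag2* -1.77 (adjusted p = 0.00365), *Dntt* -1.61 (adjusted p = 0.000878) and *Igll1* -1.45 (adjusted p = 0.00516). *Cd79a* at -1.48, *Vpreb3* at -1.25 and *Cd79b* at -0.76 (adjusted p = 0.029) also passed, whereas *Vpreb1* at -0.49 (adjusted p = 0.314), *Pax5* at -0.04 and *Ebf1* at 0.61 (adjusted p = 0.0548) did not. *Ebf1* thus turned in direction with the scaling, staying under the shift of the median. As a percentage of the summed CPM of the 10 white blood cell genes, the precursor sum was 3.51, 1.22, 2.48, 2.44 and 2.25 in WT and 0.645, 0.400, 0.619 and 1.39 in the knockout-labelled libraries. The groups met only between WT replicate 2 and knockout-labelled replicate 4. The pan-B sum was 10.4, 10.2, 10.2, 8.49 and 6.40% in WT and 7.64, 7.88, 7.20 and 10.9% in the other group, and these overlapped. Without *Ebf1* it was 6.89, 7.88, 5.57, 5.0 and 3.83% in WT and 2.58, 2.03, 3.25 and 5.51% in the other group, 57.3% of the WT mean against 91.8% with *Ebf1*, and the groups still overlapped.

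Other genes of the B-cell pathway were counted from lists. Of 20 further genes used in early B-cell development, 19 were tested, 8 were lower and 0 higher, with a median of -0.30. *Il7r*, the receptor subunit for the precursor growth factor IL-7, was at 6.52, 10.8, 3.51, 5.29 and 5.50 CPM in WT and at 1.61, 1.48, 2.80 and 2.94 CPM in the other group, a log2 fold change of -1.52 (adjusted p = 0.00715). *Pou2af1*, a coactivator of immunoglobulin transcription, was the lowest at -3.19, and without WT replicate 2, where it was at 31.4 CPM, it had -2.30. Without that mouse 9 genes of the list were lower, and *Blnk*, named after its value was seen, was higher at 0.49 (adjusted p = 0.00402). The other 6 that passed, named after their values were seen, were *Ikzf1*, *Ikzf3*, *Spib*, *Bach2*, *Myb* and *Flt3*, and several of these are also used by other blood cells. *Smtnl2* was at the other end with 0.55 (adjusted p = 0.208). With all mice, several genes that did not pass were more abundant in WT than any of the 10 genes. Mean levels were 125 CPM for *Foxo1*, 96.5 for *Sox4* and 35.5 for *Blnk*, against 15.2 for *Ebf1*, the highest of the 10. Others that did not pass were at low levels, such as *Lef1* at 4.71 and *Arpp21* at 2.27 CPM. Whole-tissue RNA does not show their cells of origin, so the list median is not a measure of early B cells alone.

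Most of the listed mature B-cell genes were lower. Of 20 tested, 16 were lower and 0 higher, with a median of -2.05, close to that of the pan-B genes, and without WT replicate 2 it was 15 of 19, with a median of -1.61. Scaled to the white blood cell genes, 11 were lower and 1 higher, with a median of -0.81, where the median of all genes was 1.13. *Ms4a1*, the gene for CD20, had a log2 fold change of -3.15 and without WT replicate 2, where it was at 16.3 CPM, -2.01. *Cd22*, an inhibitory coreceptor, had -2.12 and without that mouse -1.35. *Fcer2a*, the low-affinity IgE receptor, was the lowest of the list at -3.67 and had -2.55 without it, and *Cd72* was closest to 0 at -0.02 (adjusted p = 0.957). *Cd72* had 0.14 (adjusted p = 0.741) without WT replicate 2. *Ly6d*, the most abundant of the list, is also expressed in epithelium.

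Immunoglobulin constant-region genes had wide fold changes, whose size depended on WT replicate 2. Of 11, 10 were lower, with a median of -4.07, and 9 were lower without that mouse, with a median of -1.76. Leaving out a knockout-labelled mouse left 2 lower without replicate 1, 6 without replicate 2, 4 without replicate 3 and 6 without replicate 4. *Ighm*, the constant region of IgM, was at 171, 271, 68.9, 96.5 and 103 CPM in WT and at 48.6, 18.8, 58.6 and 65.2 CPM in the other group, a log2 fold change of -1.57 (adjusted p = 0.0198). *Igkc* had a log2 fold change of -4.10, which became -1.78 without WT replicate 2, and *Ighg2c* had -5.77, which became -2.27. Plasma-cell genes were less uniform: 3 of 11 tested were lower, with a median of -0.39, and *Jchain*, the joining chain of IgM and IgA, was the lowest at -3.75. Without WT replicate 2 *Jchain* had -1.999 (adjusted p = 0.00231), the lowest of the list was *Slamf7* at -2.93, and 4 genes were lower and 1 higher. The list median was then -0.23. The gene higher in that fit was *Derl3* at 1.24 (adjusted p = 0.0413), against 0.10 with all mice.

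**Figure D4:**
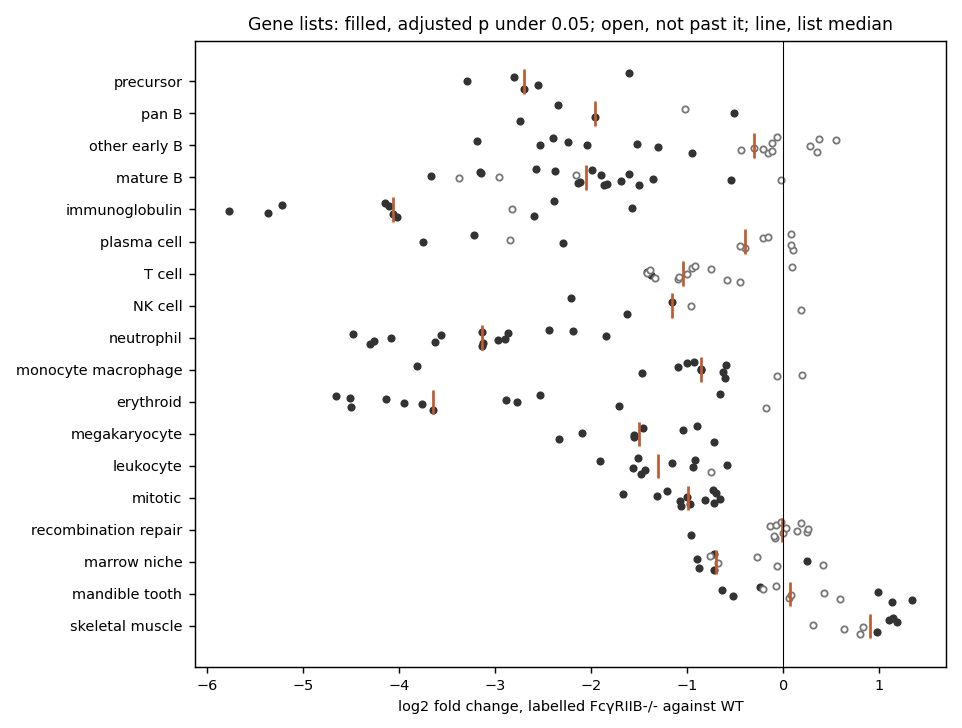
Log2 fold change (knockout-labelled libraries against WT) of each tested gene in the gene lists, with 1 point per gene and the median of each list marked. The precursor genes lie between -3.29 and -1.60, the recombination and repair genes around a median of -0.01, and the neutrophil and erythroid medians are at -3.13 and -3.65.

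The joining step of recombination uses general DNA repair proteins as well as RAG. Of 12 such genes, 1 was lower and 0 were higher, with a median of -0.01. The gene that passed was *Hmgb2* at -0.96, a DNA-bending protein that is also used by dividing cells, and all 12 mitotic genes were lower, with *Mki67* at -1.66. Genes of the marrow niche were also counted. Of 10, 4 were lower and 1 higher: *Cxcl12*, which holds precursors in the marrow, fell by 0.73 on the log2 scale (adjusted p = 0.0038), *Lepr*, a marker of marrow stroma, was the lowest at -0.89, and *Kitl* rose, with a log2 fold change of 0.25 (adjusted p = 0.0136). *Il7*, the precursor growth factor, was at 1.34 ± 0.537 CPM (SD, n = 5) in WT and 0.830 ± 0.312 CPM (SD, n = 4) in the other group, with -0.68 (adjusted p = 0.159), and -0.38 without WT replicate 2. How far these changes enter into those of the B-lineage genes was not tested.

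RAG1, RAG2 and terminal transferase are also used by developing T cells. Of 14 T cell genes tested of 17 listed, 2 were lower and 0 higher, with a median of -1.04, and *Cd3e* had a log2 fold change of -1.33 (adjusted p = 0.224). Without WT replicate 2 the median was -0.10, *Cd3e* had -0.14 (adjusted p = 0.858) and 1 gene, *Lat*, was lower, so the lower T cell values rested on that mouse. *Ptcra*, the pre-T-cell receptor chain, was at 0 counts in 7 of the 9 mice and at 1 count in the other two. Among NK cell genes, 3 of 5 tested were lower, and 2 of 3 without WT replicate 2, with *Nkg7* the lowest at -2.21. Skeletal muscle genes went the other way, with 4 of 8 higher and a median of 0.90, and their sum was 6368 to 14759 CPM in WT and 15197 to 26276 CPM in the knockout-labelled libraries, with no overlap. Of 12 bone and tooth genes, 3 were higher and 3 lower (4 and 2 without WT replicate 2), with a median of 0.07 (0.18 without that mouse). *Col1a1* was the most abundant. The part that the muscle content of the samples takes in the B-lineage values was not tested.

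The genes whose level followed the B-lineage genes most closely over the 9 mice were ranked by Pearson r of log2 CPM with the mean standardized level of each group, among 15144 genes. For the precursor genes, the 8 nearest were *Klf1*, an erythroid transcription factor, with r = 0.993, and then *Dhrs11*, *1300017J02Rik*, *Icam4*, *Mfsd2b*, *Slc46a2*, *Muc13* and *A730089K16Rik*, down to r = 0.986. For the pan-B genes the 8 nearest included *A630001G21Rik* with r = 0.991, *Siglecg* with 0.988, and *Arl5c*, *Arhgap45*, *Rbm3*, *Fcrla* and *Cd300lf*, the last with 0.977. The 9 points hold both groups and share their libraries, so these correlations are a description.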

How the data were processed

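Per the labels and the study's methods, poly(A) RNA of pulverized whole mandibles was made into stranded libraries and read as 75-base single ends. The authors trimmed with Trim Galore, mapped to mm10 with HISAT 02.1.0 and deposited raw counts per gene from featureCounts. The annotation, the strand setting and the treatment of reads matching several genes are not given in the sources used here. The table held 1 further column of values that matches no label, and it was not used.

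Everything else was computed here with R 4.3.3 and edgeR 4.0.16: filterByExpr (minimum count 10), TMM, the quasi-likelihood test without covariates, and Benjamini-Hochberg adjustment over 16329 genes at 0.05. Standard errors (SE) are the size of the log2 fold change divided by the root of F, and log2 CPM used a prior count of 2. The 10 genes and 19 gene lists (214 entries) were chosen with earlier results of these data known. Named genes are the 10, *Fcgr2b*, listed genes fixed by name, the extremes of each list, and the 8 nearest by correlation. Not every gene that the rule names is reported here. DESeq2 1.42.0, other scalings and filters, a replicate block and leaving out each mouse were alternatives. Of 16 pairs of libraries within a group, 0 were near-identical. The tests were tested on simulated data in which 200 of 16329 genes changed by 1 on the log2 scale. Unchanged genes made up 8.18% of edgeR calls and 26.3% of DESeq2 calls. The simulated counts used dispersions estimated by edgeR, and far fewer genes changed than were called in the data (3144 lower and 2289 higher). These shares are therefore not error rates of the calls reported above, nor an even comparison of the 2 tools. Gene positions are those of RefSeq for GRCm38 (mm10).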

Additional observations from a re-analysis of the deposited data

Results flagged for a closer look

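In 8 of 36 sets of group values the highest mouse stood apart from the rest. The measure was its gap to the nearest other mouse relative to the range. Its limits give about 1 in 20 for independent, normally distributed values. The sets share the same mice and CPM need not be normal, so that rate is only a rough guide. In WT, the flagged values were *Dntt* in replicate 5 (4.22 CPM, next 2.43), *Cd79b* in replicate 2 (25.4 CPM, next 11.7), *Vpreb3* in replicate 1 (5.83 CPM, next 3.01) and *Fcgr2b* in replicate 2 (38.3 CPM, next 23.1). In the libraries labelled *FcγRIIB*-/-, these were *Igll1* in replicate 4 (0.811 CPM, next 0.127) and *Fcgr2b* in replicate 4 (32.1 CPM, next 26.6). The immunoglobulin sum of 9527.4 CPM (next 811) and the T cell sum of 102 CPM (next 36.0) in WT replicate 2 were the others.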

How the results depend on the processing

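Of 159 repeats over the 10 genes and the alternatives, 153 kept direction and call. With at least 10 counts in every library only 4 of the 10 genes were tested and 3 were lower, and 10 mature B-cell genes of 12 tested. Scaled to white blood cell genes, *Ebf1* had 0.61, *Vpreb1* -0.49, *Fcgr2b* 1.41 (adjusted p = 1.53e-05), and 5 other early B-cell genes were lower and 11 higher (median 0.79). In that fit 83.8% of all tested genes were called higher, with a median of 1.13. *Pax5* passed with DESeq2 at -1.01 (adjusted p = 0.0447) and with the replicate block at -1.34 (adjusted p = 0.0339). The block fit also left out WT replicate 5, which has no partner, and without that mouse alone *Pax5* had -1.21 (adjusted p = 0.0285). In both fits 9 of the 10 genes were tested (not *Rag2*) and all 9 were lower. With the block 12 of 19 tested mature B-cell genes, 9 immunoglobulin genes and 7 other early B-cell genes were lower, against 15, 11 and 8 without that mouse alone. Numbers shared by mice of the groups do not mark the same animals, and their deviations correlated at 0.097, 0.028, -0.114 and -0.074. The log2 precursor to pan-B ratio changed by -0.78 with genes weighted equally and by -0.85 without *Ebf1*.

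Leaving out each mouse, 8 to 10 of the 10 genes were lower, and 2 to 11 immunoglobulin genes: 2 without knockout-labelled replicate 1, 6 without replicate 2, 4 without replicate 3 and 6 without replicate 4, against 5 with DESeq2. The cause was not tested. *Rag1* lay between -3.50 and -2.95, *Dntt* between -3.84 and -2.34, *Igll1* between -3.94 and -2.21 (lowest without replicate 4 for the last 2), *Pax5* between -1.45 and -0.77 and the ratio difference between -1.86 and -1.36. *Rag2* was tested in 5 of 9 such fits. *Fcgr2b* lay between 0.13 and 0.46 (0.46, adjusted p = 0.0131, without WT replicate 2). With library totals alone 3781 genes were lower and 1309 higher, against 3144 and 2289 with TMM. Depth limits *Rag2*, *Dntt* and *Igll1*, with 11, 35 and 23 counts over the libraries labelled *FcγRIIB*-/-.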
